A study of Homo sapiens with 96 samples.

Results

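The genes described here encode machinery with which cells process antigens and present the peptides on major histocompatibility complex (MHC) molecules. They are B2M, TAP1, TAP2, TAPBP, PSMB8, PSMB9, NLRC5, CIITA, CD74 and HLA-DMB, 10 of the 19775 genes measured. Each gene was read from 1 probe set, the one whose mean over arrays of the HaCaT constructs was highest among those annotated to the gene. Every member had such a probe set and no filter on low values was used, so all 10 entered every test. The series measured mRNA in 96 cultured-cell samples with Affymetrix U133 Plus 2.0 arrays, of which 89 came from 4 derivatives of HaCaT, an immortalized but not transformed human keratinocyte line. The transgenes stood in pLenti-CMV puro lentiviral vectors, with the CMV promoter and puromycin selection: HaCaT-EGFR carried wild-type EGFR, HaCaT-HRAS an activated HRAS and HaCaT-PIK3CA an activated PIK3CA. HaCaT-Mock was the control line, and neither the labels nor the methods name a vector for it. Each line was treated with afatinib at 10 nM (an irreversible kinase inhibitor of the EGFR family), gefitinib at 100 nM (a reversible EGFR kinase inhibitor), cetuximab at 100 nM (an antibody against the extracellular part of EGFR) or PBS. Each line was also transfected with a single siRNA against EGFR (siEGFR) or a scramble siRNA, and some scramble-transfected cells then received an inhibitor or PBS. Most groups held 3 arrays. HaCaT-EGFR under PBS, HaCaT-PIK3CA under gefitinib and most groups of scramble siRNA with PBS held 2, and each scramble siRNA group with an inhibitor, and HaCaT-Mock with scramble siRNA and PBS, held 1. The remaining arrays were of the head and neck carcinoma lines SCC1 (2 arrays), SCC25 (2) and FaDu (2, of which 1 was under PBS), and of parental HaCaT (1).

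MHC class I molecules show peptides made in the cytosol. The proteasome cuts proteins into peptides, the TAP transporter moves them into the endoplasmic reticulum, tapasin holds an empty class I heavy chain at the transporter, and B2M completes the complex that reaches the cell surface. MHC class II molecules are found mainly on professional antigen presenting cells and load peptides in endosomes, where the invariant chain guards the groove and HLA-DM exchanges it for peptide. Interferons induce both sets of genes, and keratinocytes express class II molecules chiefly under interferon gamma.

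The promoters of the members come first. Under the inhibitors 6 of the 10 genes were higher, in a test given below. Of all genes, 39.2% changed in that test and 19.8% were higher. Promoter windows (250 bases before to 50 after the start site, RefSeq, GRCh38.p14, 5′ to 3′ on the gene's strand) matched 8 of the 10 members, with 10 windows in all. NLRC5 and CIITA were not matched. Capitals mark matches on either strand to an interferon-stimulated response element core (ISRE, GAAANNGAA), the GAS element (TTCNNNGAA), the Y box (CCAAT), an X2-like element (TGACG) and an NF-kB site (GGANTTTCC). The first set is of members that were higher under the inhibitors, PSMB9 (chr6:32853942-32854241, + strand), TAPBP (chr6:33314029-33314328, − strand), TAP1 (chr6:32853655-32853954, − strand) and B2M (chr15:44711267-44711566, + strand). The second is of members that did not pass that test, TAP2 (chr6:32838690-32838989, − strand) and CD74 (chr5:150412861-150413160, − strand).
PSMB9: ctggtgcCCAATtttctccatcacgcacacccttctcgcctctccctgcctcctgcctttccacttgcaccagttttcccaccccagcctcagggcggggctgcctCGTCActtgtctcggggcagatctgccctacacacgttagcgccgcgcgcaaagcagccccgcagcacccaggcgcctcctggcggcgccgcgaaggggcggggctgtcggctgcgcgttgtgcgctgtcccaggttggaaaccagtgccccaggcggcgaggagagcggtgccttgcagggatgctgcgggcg
TAPBP: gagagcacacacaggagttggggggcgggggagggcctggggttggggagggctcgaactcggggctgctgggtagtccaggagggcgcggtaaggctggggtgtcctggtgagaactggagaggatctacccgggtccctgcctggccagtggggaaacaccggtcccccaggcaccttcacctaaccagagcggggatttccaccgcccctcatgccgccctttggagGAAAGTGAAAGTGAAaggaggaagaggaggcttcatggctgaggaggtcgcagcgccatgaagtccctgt
TAP1: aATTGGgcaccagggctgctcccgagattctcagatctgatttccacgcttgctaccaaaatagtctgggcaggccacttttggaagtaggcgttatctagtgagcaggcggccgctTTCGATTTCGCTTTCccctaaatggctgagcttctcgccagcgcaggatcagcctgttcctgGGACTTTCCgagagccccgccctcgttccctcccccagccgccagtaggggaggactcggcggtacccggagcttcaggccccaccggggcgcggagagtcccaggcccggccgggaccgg
B2M: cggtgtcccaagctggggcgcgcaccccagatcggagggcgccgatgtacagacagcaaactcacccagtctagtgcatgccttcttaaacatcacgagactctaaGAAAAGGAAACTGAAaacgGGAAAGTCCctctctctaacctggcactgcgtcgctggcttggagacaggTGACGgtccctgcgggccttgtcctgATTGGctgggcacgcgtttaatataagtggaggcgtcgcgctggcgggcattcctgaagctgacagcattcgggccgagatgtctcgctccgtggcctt
TAP2: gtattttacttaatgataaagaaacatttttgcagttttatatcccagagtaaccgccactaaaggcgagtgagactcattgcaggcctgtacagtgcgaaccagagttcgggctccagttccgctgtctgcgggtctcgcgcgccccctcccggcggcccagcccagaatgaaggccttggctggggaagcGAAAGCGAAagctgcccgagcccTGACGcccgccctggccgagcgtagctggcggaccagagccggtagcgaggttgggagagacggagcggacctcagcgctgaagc
CD74: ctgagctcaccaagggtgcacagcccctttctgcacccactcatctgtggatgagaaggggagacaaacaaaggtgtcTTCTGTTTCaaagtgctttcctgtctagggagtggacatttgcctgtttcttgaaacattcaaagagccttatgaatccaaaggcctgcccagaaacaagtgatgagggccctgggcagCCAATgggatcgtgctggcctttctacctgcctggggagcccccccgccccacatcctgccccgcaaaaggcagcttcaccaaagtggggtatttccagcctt

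An ISRE core stood in windows of 7 of the 8 matched members. By window it was in 7 of the 10 member windows, and in 8.11% of all 35116 windows of the same length. PSMB9 was the member without one. In B2M, TAP1 and TAPBP 2 such cores overlapped in the same window, and more than 1 match stood in 0.701% of all windows. The NF-kB letters were in the windows of 2 members, B2M and TAP1, and in 1.64% of all windows. Only the form of NF-kB site given above was searched for, so other forms were not counted. The Y box was found in 5 members and in 34.6% of windows, the X2-like element in 5 and 24.6%, the GAS element in 2 and 7.66%, a GC box (GGGCGG, not in capitals) in 6 and 45% and the AP-1 letters (TGANTCA) in none of the 8 and 7.71%. Counted by window, the GC box stood in 8 of the 10 member windows. TAP2 and CD74 each held 1 ISRE core, as HLA-DMB did. These matches describe the letters only, and whether any factor binds them was not tested. TAP2, PSMB8, TAP1, PSMB9 and HLA-DMB follow each other on chromosome 6 in that order, with HLA-DOB before and HLA-DMA after them, and the windows of TAP1 and PSMB9 overlap on opposite strands. TAPBP is also on chromosome 6, B2M on 15, NLRC5 and CIITA on 16 and CD74 on 5.

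The deposited values were log2 signals with array medians between 5.08 and 5.18. Arrays carried batch labels J, E, M and P, and HaCaT-Mock and HaCaT-EGFR had no PBS array in batch M. In the fit, batch M was above batch J by 0.53 for TAPBP and 0.40 for CD74, and below it by 0.28 for TAP2 (batch M minus J −0.28), so batch was a term of every test, and differences within a batch are given for the members that passed under the inhibitors. Whether replicates came from separate cultures is not in the labels, and p-values therefore reflect a spread between arrays that may be technical only. Keratinocyte markers were present (KRT14 averaged 12.62 and KRT5 11.52 on the log2 scale), and none of 9 leukocyte and antigen presenting cell markers passed the test under the inhibitors. The mean of those 9 markers lay between 4.38 and 4.70 on inhibitor arrays and between 4.49 and 4.72 on PBS arrays, with PTPRC at 3.86. Array values have no true zero, and the means of CIITA (5.10), CD74 (5.07), HLA-DMB (5.39) and NLRC5 (5.52) were below 6.10, the median of all genes. The data cannot tell fewer cells with a transcript from less transcript per cell.

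Some arrays stood apart. The array labelled HaCaT-Mock scramble siRNA with PBS, replicate 1, read 10.03 for PSMB9 and 9.69 for TAPBP, and its DUSP6, a phosphatase induced by ERK signalling and chosen after its values were seen, was 8.13, against 9.49 to 10.18 on the 3 HaCaT-Mock PBS arrays. The array labelled HaCaT-PIK3CA afatinib, replicate 1, went the other way, with PSMB9 at 8.75, TAPBP at 8.63 and DUSP6 at 9.57, against DUSP6 of 8.16 and 7.73 on the other 2 afatinib arrays and 9.80 to 10.16 under PBS. HaCaT-HRAS gefitinib replicate 1 read 12.28 for B2M, the lowest of the 89 arrays, with a difference between the 3′ and 5′ ACTB control probe sets of 3.50, the highest of all arrays. HaCaT-PIK3CA cetuximab replicate 2 read 13.71 for B2M, the highest of the 89, and 4.15 for CD74. The FaDu array of batch P was left out of every test. The other 4 arrays were kept, and the counts of each comparison that holds one of them are also given without them. These 4 were picked in part by the values of the members themselves. Fits without them are therefore no independent support for the members' differences. In a fit with array weights, HaCaT-HRAS gefitinib replicate 2 had the lowest weight (0.020) and its replicate 1 the next lowest (0.058). Replicate 2 is not among the 4 arrays. It is 1 of 3 arrays left out together in an alternative given at the end.

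**Figure D1:**
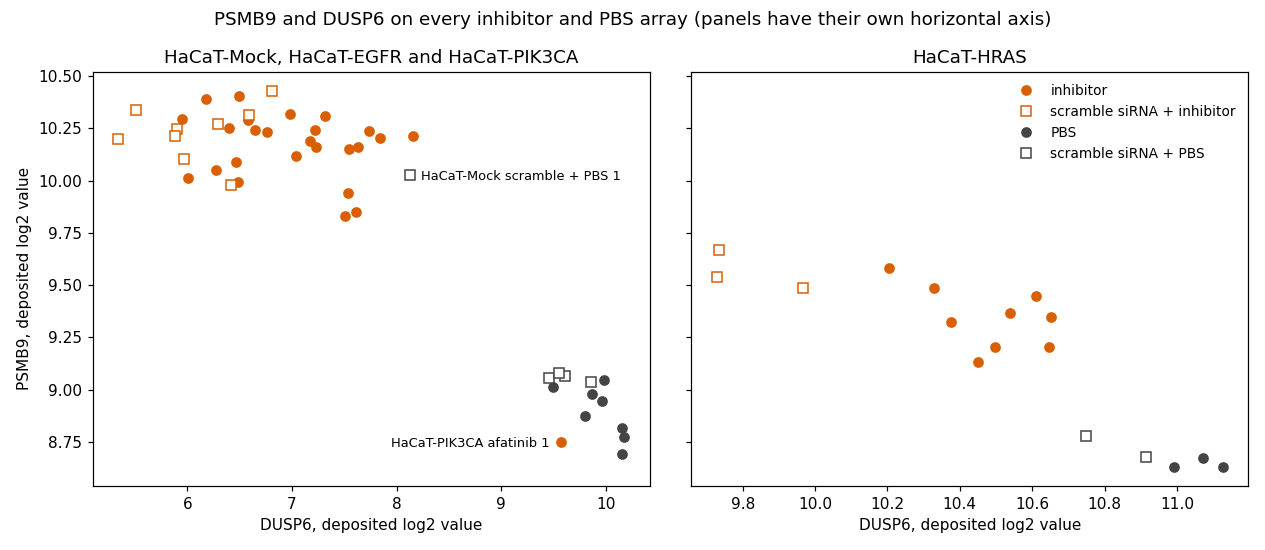
Deposited log2 value of PSMB9 (vertical) against DUSP6 (horizontal) on every inhibitor and PBS array, with and without scramble siRNA, left for HaCaT-Mock, HaCaT-EGFR and HaCaT-PIK3CA and right for HaCaT-HRAS. The array labelled HaCaT-Mock scramble + PBS 1 lies among inhibitor arrays in PSMB9 (10.03). Its DUSP6 (8.13) is above that of every HaCaT-Mock inhibitor array. The array labelled HaCaT-PIK3CA afatinib 1 (PSMB9 8.75) lies among PBS arrays.

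The first comparison asked how the members responded to EGFR inhibition. Over the 4 lines, 6 of the 10 genes were higher on 35 inhibitor arrays than on 11 PBS arrays (limma, Benjamini-Hochberg adjusted p over 19775 genes), and none was lower. They were PSMB9, TAPBP, PSMB8, NLRC5, TAP1 and B2M, with log2 differences between 0.20 and 1.07. Of all genes, 39.2% changed and 19.8% were higher. The members' median difference was 0.33 and that of all genes −0.01. Without the 4 arrays in doubt the same 6 passed, with PSMB9 higher by 1.12, TAPBP by 0.71, PSMB8 by 0.60, NLRC5 by 0.53, TAP1 by 0.47 and B2M by 0.22, and 43.2% of all genes changed.

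PSMB9 encodes a catalytic subunit of the immunoproteasome, the form of the proteasome that interferon-exposed cells build. In HaCaT-Mock its lowest, median and highest values were 9.85, 10.20 and 10.40 on 9 inhibitor arrays, against 8.77, 8.69 and 9.01 under PBS. In HaCaT-EGFR they were 9.99, 10.24 and 10.39 on 9 inhibitor arrays, against 9.05 and 8.98 under PBS. The groups did not overlap in either line. In HaCaT-HRAS they were 9.13, 9.35 and 9.58 on 9 inhibitor arrays, against 8.67, 8.63 and 8.63 under PBS. In HaCaT-PIK3CA they were 8.75, 10.18 and 10.24 on 8 inhibitor arrays, against 8.95, 8.82 and 8.87 under PBS. HaCaT-HRAS inhibitor arrays were thus above their PBS arrays yet below every inhibitor array of HaCaT-Mock and HaCaT-EGFR, and in HaCaT-PIK3CA the 1 array that overlapped PBS was afatinib replicate 1. Over the lines PSMB9 was 1.07 higher (SE 0.064, adjusted p = 2.00e-20), 2.10-fold. Within batch J its difference was 1.34 in HaCaT-Mock and 1.15 in HaCaT-EGFR, with 0.95 in HaCaT-PIK3CA and 0.72 in HaCaT-HRAS. It was 1.24 within batch E (HaCaT-Mock), and within batch M 1.32 in HaCaT-PIK3CA and 0.67 in HaCaT-HRAS. Without the arrays in doubt the batch J values were 1.31 in HaCaT-PIK3CA and 0.67 in HaCaT-HRAS.

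PSMB8, another catalytic subunit of the immunoproteasome, was 0.56 higher (SE 0.040, adjusted p = 9.38e-18), 1.48-fold. Its inhibitor arrays had a median of 9.29 in HaCaT-Mock, against 8.56, 8.46 and 8.68 under PBS. The median was 8.91 in HaCaT-HRAS inhibitor arrays, against 8.73, 8.67 and 8.48 under PBS. Its differences within a batch ran from 0.23 in HaCaT-HRAS to 0.76 in HaCaT-Mock, both in batch J. Of 35 inhibitor arrays, 34 lay above every PBS array of their line for PSMB8, and likewise 34 for PSMB9. PSMB8 and PSMB9 moved most alike among the members, with r = 0.94 over the means of 40 groups that share lines, batches and treatments.

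TAP1, 1 of the subunits of the transporter that carries peptides into the endoplasmic reticulum, was 0.46 higher (SE 0.040, adjusted p = 1.58e-14), 1.38-fold. Its median on inhibitor arrays was 8.80 in HaCaT-Mock, against 8.26, 8.30 and 8.48 under PBS, and 8.77 in HaCaT-EGFR, against 8.27 and 8.18 under PBS. Again 34 of 35 inhibitor arrays exceeded every PBS array of their line, and the differences within a batch ran from 0.30 in HaCaT-HRAS to 0.55 in HaCaT-EGFR, both in batch J. TAP2, which encodes the partner of TAP1, differed by −0.02 (95% interval −0.09 to 0.05, adjusted p = 0.709), and 7 of its inhibitor arrays were above and 10 below all PBS arrays of their line. The interval of TAP2 did not reach that of TAP1 (0.38 to 0.54). Another TAP2 probe set, 204769_s_at, was lower (−0.15, SE 0.0485, adjusted p = 0.0094 over the probe sets with 1 gene), while 204770_at (−0.08, adjusted p = 0.213) and 208428_at (−0.12, adjusted p = 0.0929) did not pass.

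TAPBP, which encodes tapasin, was 0.70 higher (SE 0.058, adjusted p = 2.82e-15), 1.62-fold. Its inhibitor arrays had a lowest, median and highest value of 9.58, 9.75 and 10.30 in HaCaT-Mock, against 8.89, 8.79 and 8.91 under PBS. In HaCaT-HRAS they were 9.50, 9.65 and 10.41, against 9.17, 9.09 and 9.67 under PBS. The groups were apart in HaCaT-Mock and HaCaT-EGFR and overlapped in HaCaT-HRAS and HaCaT-PIK3CA, where the highest PBS array was in each case of batch M. Within batch J the difference was 0.86 in both HaCaT-Mock and HaCaT-EGFR, with 0.38 in HaCaT-PIK3CA and 0.58 in HaCaT-HRAS, and within batch M it was 0.43 in HaCaT-HRAS and 0.79 in HaCaT-PIK3CA. Without the arrays in doubt the order of HaCaT-PIK3CA and HaCaT-HRAS in batch J turned round, with 0.65 in HaCaT-PIK3CA and 0.45 in HaCaT-HRAS. All 3 probe sets of TAPBP were higher, by 0.37 to 0.70.

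B2M, the light chain of every class I molecule, was 0.20 higher (SE 0.042, adjusted p = 5.1e-05), 1.15-fold. Its median on inhibitor arrays was 13.23 in HaCaT-Mock, against 13.01, 12.98 and 12.97 under PBS, and 13.05 in HaCaT-HRAS, against 12.96, 12.93 and 12.69 under PBS. Above all PBS arrays of their line lay 27 of 35 inhibitor arrays, and 3 lay below them. These counts pool batches, as do the like counts of the other members. Batch M lay below batch J for B2M (batch M minus J −0.195), and HaCaT-Mock and HaCaT-EGFR had no PBS array in batch M. Within batch J the difference was −0.01 in HaCaT-HRAS (0.12 without the array in doubt), and in the other lines and batches it ran from 0.17 to 0.28. The other 2 probe sets of B2M were higher by 0.16 and 0.54. NLRC5, the transactivator of class I genes, was 0.51 higher (SE 0.061, adjusted p = 2.36e-10), with 31 of 35 inhibitor arrays above every PBS array of their line. Its median on inhibitor arrays was 5.83 in HaCaT-Mock, against 5.23, 5.29 and 5.24 under PBS, and 6.24 in HaCaT-EGFR, against 5.60 and 5.70 under PBS. The PBS values of NLRC5 lay near the array medians, so that its difference may understate the change. Within batch M it was 0.04 in HaCaT-HRAS and 0.81 in HaCaT-PIK3CA, and within batches J and E it ran from 0.31 to 0.68.

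The class II members did not pass the test over the lines. CIITA, the class II transactivator, differed by −0.04 (95% interval −0.13 to 0.05, adjusted p = 0.571). CD74, the invariant chain, differed by −0.02 (−0.15 to 0.12, adjusted p = 0.893). HLA-DMB, a chain of the peptide exchange factor HLA-DM, differed by −0.11 (−0.23 to 0.01, adjusted p = 0.162). Their low levels limit what a difference can show. On inhibitor arrays CIITA spanned 4.77 to 5.36 in the 4 lines, against 4.88 to 5.50 under PBS, and none of the 3 probe sets of CIITA or of CD74 passed.

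**Figure D2:**
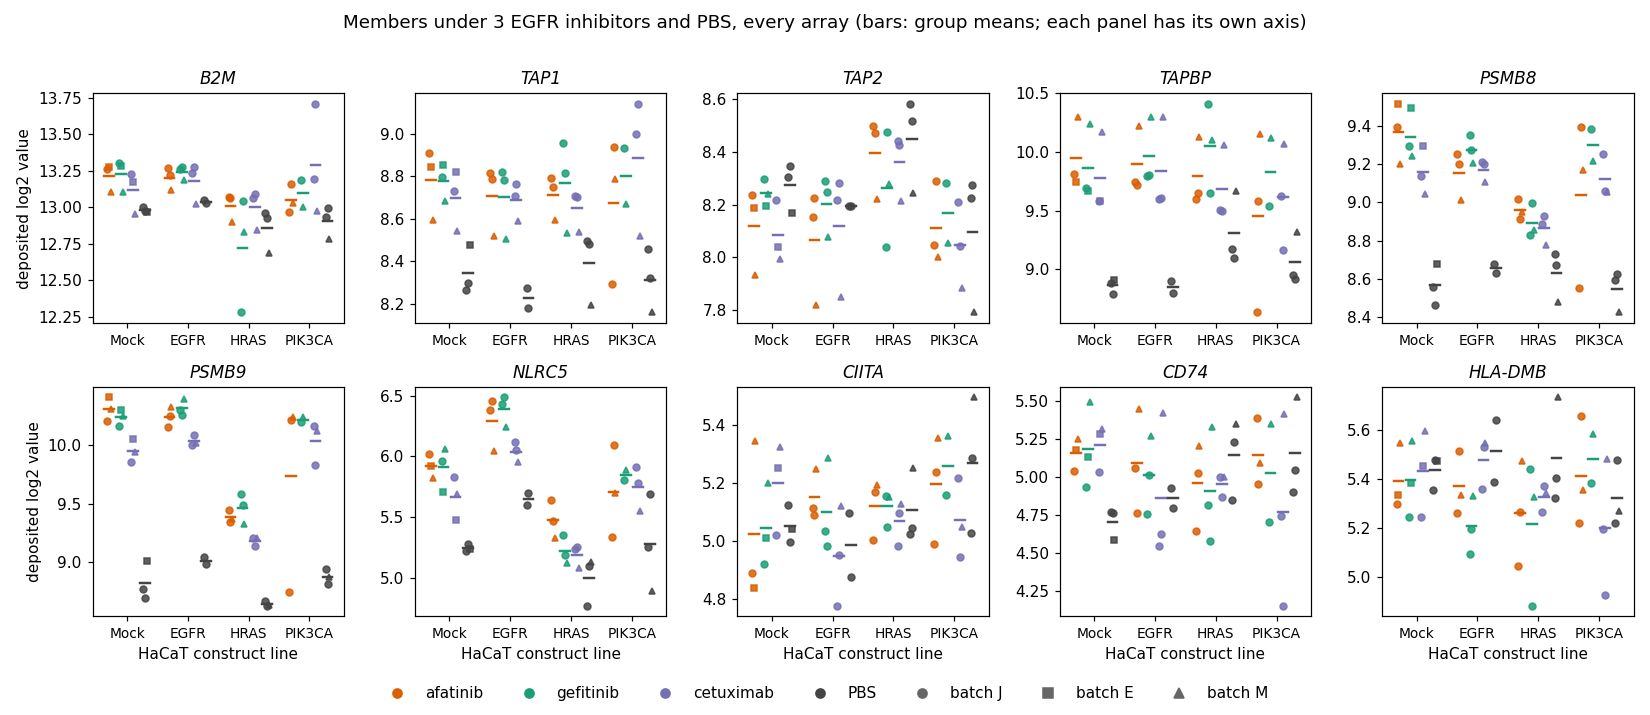
Deposited log2 value of each gene (vertical, own axis per panel) on every inhibitor and PBS array of the 4 HaCaT construct lines (horizontal). Points are arrays, marker shapes are batches, bars are group means, and PSMB9, PSMB8 and TAP1 lie above every PBS array of their line on 34 of 35 inhibitor arrays.

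The same 6 members passed under each inhibitor tested over the lines. Of all genes, 37.1% changed under afatinib, 37.5% under gefitinib and 28.8% under cetuximab. These 3 comparisons share their PBS arrays. PSMB9 was 1.07 higher under afatinib, 1.20 under gefitinib and 0.95 under cetuximab (SE 0.077, 0.080 and 0.077). TAPBP was 0.66 higher under afatinib, 0.80 under gefitinib and 0.62 under cetuximab, and NLRC5 0.58, 0.58 and 0.39 in the same order. The same 6 passed under each without the 4 arrays in doubt, beside 42.3%, 40.8% and 33% of all genes for afatinib, gefitinib and cetuximab, and PSMB9 was higher by 1.19, 1.20 and 0.98 and TAPBP by 0.75, 0.74 and 0.66 in that order. Afatinib was given at a lower dose than the others, so its values stand beside theirs with no test.

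Gefitinib and cetuximab, given at the same dose, were compared directly over the 10 genes, with p-values adjusted over all genes. PSMB9 was higher under gefitinib by 0.25 (95% interval 0.10 to 0.41, adjusted p = 0.0229), 1 of 10 members, where 10.8% of all genes differed. The call was lost without HaCaT-PIK3CA cetuximab replicate 2 and without HaCaT-PIK3CA gefitinib replicate 1 (0 members in each case), whereas 4 members passed without HaCaT-PIK3CA afatinib replicate 1, 3 without HaCaT-HRAS gefitinib replicate 1 and 2 without its replicate 2 or 3. Without the 4 arrays in doubt 3 members passed, beside 12.8% of all genes. Among the members that did not pass, the interval was 0.03 to 0.22 for PSMB8, 0.04 to 0.31 for TAPBP, 0.04 to 0.33 for NLRC5, −0.05 to 0.14 for TAP1 and −0.17 to 0.03 for B2M. It was 0.00 to 0.16 for TAP2, −0.05 to 0.15 for CIITA, −0.10 to 0.23 for CD74 and −0.18 to 0.10 for HLA-DMB.

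By line, 7 members were higher in HaCaT-Mock, where 28.7% of all genes changed. Besides the 6 named above this was CD74, with 4.94, 5.18 and 5.50 as its lowest, median and highest inhibitor values, against 4.77, 4.76 and 4.58 under PBS (difference 0.35, SE 0.128, adjusted p = 0.0352). In HaCaT-EGFR 5 members were higher (26.4% of all genes changed), with B2M 0.24 higher at an adjusted p of 0.0531. In HaCaT-PIK3CA 6 were higher (20.3% of all genes changed). In HaCaT-HRAS 4 were higher (6.01% changed), TAP1 by 0.32, TAPBP by 0.53, PSMB8 by 0.28 and PSMB9 by 0.70. Only 2 passed without HaCaT-HRAS PBS replicate 3. Without the 4 arrays in doubt, the number was 5 in HaCaT-HRAS (10.9% of all genes changed) and 6 in HaCaT-PIK3CA (29.1% changed). CD74 differed within batches by 0.24 (J) and 0.61 (E) in HaCaT-Mock and by −0.07 to −0.24 in the other lines.

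Whether the response itself differed between lines was tested as a difference of differences. That of HaCaT-HRAS was smaller than that of HaCaT-Mock for 3 members, PSMB8 (log2 difference −0.49, SE 0.106, adjusted p = 0.00103), PSMB9 (−0.62, SE 0.173, adjusted p = 0.0128) and CD74 (−0.55, SE 0.181, adjusted p = 0.0419). Of all genes, 9.53% differed in this way. For PSMB9 all 9 HaCaT-HRAS inhibitor arrays were nevertheless above the 3 PBS arrays. For CD74, 9 of 9 HaCaT-Mock inhibitor arrays were above their PBS arrays and none of 9 HaCaT-HRAS inhibitor arrays was. These CD74 counts pool batches. Batch M lay 0.40 above batch J for CD74, and HaCaT-Mock had no PBS array in batch M. The highest HaCaT-HRAS PBS array (5.35) was of batch M. CD74 also read low, with a mean of 5.07. Without the 4 arrays in doubt 5 members passed, with B2M and TAPBP added, beside 15.4% of all genes, and without HaCaT-Mock PBS replicate 2 only 1 did. No member passed limma's test for HaCaT-EGFR minus HaCaT-Mock, where 0.0708% of all genes differed, or for HaCaT-PIK3CA minus HaCaT-Mock (0.142%), with 0 and 1 members at an unadjusted p under 0.05. HaCaT-PIK3CA minus HaCaT-Mock gave 0 members also without the 4 arrays in doubt (0.652% of all genes).

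**Figure D3:**
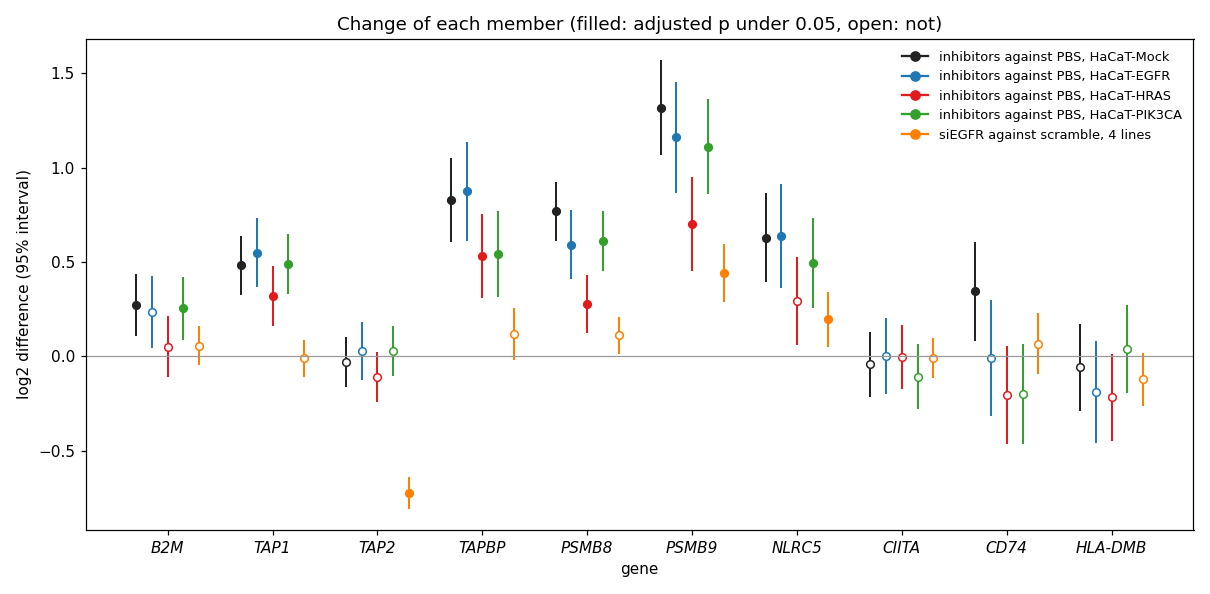
Log2 difference of each gene with its 95% interval (vertical) for the mean of 3 inhibitors against PBS in each HaCaT construct line and for siEGFR against scramble siRNA over the 4 lines; filled points passed an adjusted p of 0.05. PSMB9 was higher in all 5 comparisons drawn, and TAP2 was lower after siEGFR (−0.72).

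The constructs themselves were compared under PBS. No member passed in limma's test between HaCaT-EGFR and HaCaT-Mock (0.698% of all genes did) or between HaCaT-PIK3CA and HaCaT-Mock (0.162%), and in each 1 member had an unadjusted p under 0.05, NLRC5 in HaCaT-EGFR and CD74 in HaCaT-PIK3CA. The largest of these differences was 0.36 for CD74 in HaCaT-PIK3CA (95% interval 0.04 to 0.68). In HaCaT-HRAS 1 of 10 members differed from HaCaT-Mock, where 16.1% of all genes did. TAP2 read 8.58, 8.52 and 8.24 in HaCaT-HRAS, against 8.30, 8.35 and 8.17 in HaCaT-Mock, a difference of 0.23 (SE 0.079, adjusted p = 0.0378). The groups overlapped, and the call was lost on leaving out any 1 of the 6 arrays. Under scramble siRNA TAP2 read 8.55, 8.61 and 8.30 in HaCaT-HRAS, against 8.32, 8.28 and 8.02 in HaCaT-Mock, a difference of 0.28 (SE 0.077, adjusted p = 0.00715), again 1 member beside 14.9% of all genes. That call was lost in batch J alone and without a batch term. With TAP2 read from 204769_s_at, the probe set that the study's rule picks, the difference was 0.48 under PBS (adjusted p = 0.0017 over probe sets) and 0.09 under scramble siRNA (adjusted p = 0.686 over genes).

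The scramble siRNA set gave the inhibitor comparison on other arrays, 12 with an inhibitor and 7 with PBS. PSMB9 (0.79 higher, SE 0.095), PSMB8 (0.40, SE 0.059), TAPBP (0.40, SE 0.085) and NLRC5 (0.42, SE 0.090) passed, 4 of 10 members, where 19.3% of all genes changed. In HaCaT-Mock PSMB9 read 10.32, 10.25 and 9.98 under afatinib, gefitinib and cetuximab, against 10.03 on the only PBS array, the one that stood apart. In HaCaT-EGFR it read 10.43, 10.34 and 10.10 in that order, against 9.04 and 9.07 with PBS. HaCaT-HRAS gave 9.67, 9.54 and 9.49, against 8.68 and 8.78 with PBS, and HaCaT-PIK3CA 10.27, 10.20 and 10.21, against 9.06 and 9.08 with PBS. Over the 3 other lines, without the array in doubt, 6 members passed and 25.3% of all genes changed, with PSMB9 higher by 1.01, TAP1 by 0.22 and B2M by 0.18.

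The siRNA comparison asked what loss of EGFR mRNA did without a drug. EGFR itself was lower after siEGFR than after scramble siRNA (log2 difference −1.71 in HaCaT-EGFR, −1.89 in HaCaT-PIK3CA, −1.97 in HaCaT-HRAS and −2.11 in HaCaT-Mock, SE 0.0957), in 3 of 3 arrays of each line. Over the lines 3 of 10 members changed, where 28.4% of all genes did. PSMB9 and NLRC5 were higher and TAP2 was lower. The interval of TAP1 was −0.10 to 0.08, of B2M −0.04 to 0.15, of TAPBP −0.02 to 0.25 and of PSMB8 0.02 to 0.20. Without the 4 arrays in doubt, none of which was in this comparison but which entered the shared spread, 6 members passed, with B2M (0.06), TAPBP (0.12) and PSMB8 (0.11) added, beside 34% of all genes.

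PSMB9 read 8.98, 9.02 and 9.15 after siEGFR in HaCaT-Mock, against 8.61, 8.70 and 8.55 after scramble siRNA, and 9.14, 9.14 and 9.19 in HaCaT-EGFR, against 8.73, 8.72 and 8.79. It read 8.91, 8.96 and 8.84 in HaCaT-HRAS, against 8.32, 8.43 and 8.42, and 9.20, 9.17 and 9.18 in HaCaT-PIK3CA, against 8.72, 8.87 and 8.74. All 12 siEGFR arrays were above every scramble siRNA array of their line, and the difference was 0.44 (SE 0.074, adjusted p = 3.04e-06). NLRC5 was 0.20 higher (SE 0.070, adjusted p = 0.0267), with 8 of 12 siEGFR arrays above.

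TAP2 read 7.56, 7.65 and 7.26 after siEGFR in HaCaT-Mock, against 8.32, 8.28 and 8.02 after scramble siRNA, and 7.56, 7.46 and 7.03 in HaCaT-EGFR, against 8.24, 8.16 and 7.84. It read 7.90, 7.84 and 7.60 in HaCaT-HRAS, against 8.55, 8.61 and 8.30, and 7.62, 7.63 and 7.17 in HaCaT-PIK3CA, against 8.34, 8.29 and 8.00. All 12 siEGFR arrays were below every scramble siRNA array of their line, by nearly the same amount in each line (−0.72, −0.73, −0.71 and −0.74). Over the lines the difference was −0.72 (SE 0.039, adjusted p = 3.24e-22), and within batches it ran between −0.69 and −0.83. TAP2 under inhibitors differed by −0.02, as given above.

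The probe sets of TAP2 differed in this. Over all probe sets with 1 gene, 225973_at, the one used here, was lower after siEGFR (log2 difference −0.72, adjusted p = 1.02e-21), and so was 204770_at (−0.23, adjusted p = 9.47e-04). The difference was −0.02 for 204769_s_at (adjusted p = 0.862) and −0.05 for 208428_at (adjusted p = 0.624). Where on the TAP2 transcripts these probes lie was not analysed here. With the probe set that the study's rule picks (204769_s_at), TAP2 differed by 0.05 in HaCaT-EGFR and 0.11 in HaCaT-HRAS after siEGFR, neither past the threshold. A single EGFR siRNA was used, so loss of EGFR and any other action of that siRNA cannot be told apart in these arrays.

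**Figure D4:**
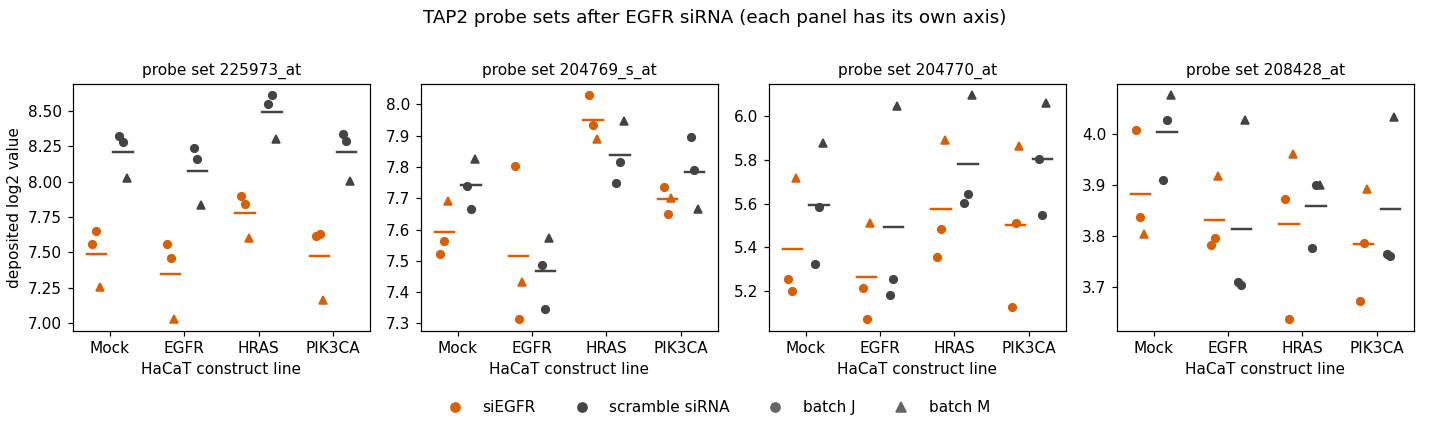
Deposited log2 value of each TAP2 probe set (vertical, own axis per panel) on siEGFR and scramble siRNA arrays of the 4 HaCaT construct lines (horizontal), with group means as bars. For 225973_at the siEGFR arrays lie below the scramble siRNA arrays in every line. For the other 3 probe sets the arrays overlap when batches are pooled, and of these 204770_at was also lower in the fit with a batch term (−0.23).

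Line by line, TAP2 passed in all 4 lines after siEGFR, and PSMB9 passed in HaCaT-HRAS (0.51, SE 0.149, adjusted p = 0.0232), a call lost without siEGFR replicate 1 or 2 or scramble siRNA replicate 1 or 3 of that line. PSMB9 differed by 0.43, 0.41 and 0.41 in HaCaT-Mock, HaCaT-EGFR and HaCaT-PIK3CA at adjusted p of 0.0505, 0.0745 and 0.0625. The share of all genes that changed was 11.6% in HaCaT-PIK3CA, 10.8% in HaCaT-Mock, 9.46% in HaCaT-EGFR and 6.29% in HaCaT-HRAS. No member passed limma's test of the siEGFR response between HaCaT-HRAS and HaCaT-Mock, where 0.0253% of all genes did and 1 member had an unadjusted p under 0.05. The interval of this difference for PSMB9 was −0.34 to 0.50. Scramble siRNA against PBS, which shares its arrays with the comparisons above, gave TAPBP −0.19 (adjusted p = 0.0362) and PSMB9 −0.21 (adjusted p = 0.0399), 2 of 10 members, where 27.1% of all genes changed, and leaving out 1 array at a time gave 0 to 3 members.

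Other genes of the pathways were read from lists, with counts of those that passed under the inhibitors over the 4 lines, where 39.2% of all genes changed and 19.8% were higher (median of all genes −0.01). All 5 measured class I heavy chains were higher (median 0.42), among them HLA-E by 0.42, HLA-B by 0.50 and HLA-C by 0.49. These near-identical paralogs may share signal. Of 6 loading and trimming genes, 3 were higher and none was lower (median 0.31), namely TAPBPL, a tapasin relative, by 0.80, and the trimming peptidases ERAP1 by 0.58 and ERAP2 by 0.74. Of 7 proteasome genes, 2 were higher and 4 lower (median −0.18). PSMB10, the remaining catalytic subunit of the immunoproteasome, was higher by 1.00 and the activator subunit PSME1 by 0.48. The activator PSME3 differed by −0.38.

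Of 9 class II chains and exchange factors, 2 were higher, HLA-DMA by 0.50 and HLA-DQB1 by 0.20, and 7 did not pass (median −0.03). Of 5 endosomal proteases 3 were higher (median 0.54), CTSS by 0.91, CTSB by 0.67 and CTSD by 0.54. Of 7 factors that bind the SXY module of MHC promoters 2 were higher and 1 lower (median 0.02), RFX5 by 0.52 and NFYC by 0.27, with NFYA at −0.22, a share near that of all genes. Of 11 interferon signalling genes 7 were higher (median 0.20), IRF1 by 1.23, IRF9, a subunit of the ISGF3 complex, by 1.25 and the kinase JAK1 by 0.42. Of 5 interferon genes 1 was higher and 1 lower (median 0.04), IFNE at 0.14 and IFNK at −0.14. The 3 measured keratinocyte markers were also higher (median 0.73), and their mean ran from 10.4 to 12.5 on inhibitor arrays, against 10.3 to 11.2 under PBS. The endothelial markers VWF and CDH5 were higher by 0.71 and 0.60 while PECAM1 differed by 0.03, and of 4 fibroblast markers COL3A1 was higher by 0.49 and COL1A1 differed by −0.11. The part of these markers in the members' differences was not tested.

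After siEGFR all 5 heavy chains were again higher (median 0.25), beside 2 of 6 loading and trimming genes (median 0.10) and 4 of 7 SXY factors (median 0.11), where 28.4% of all genes changed (median −0.02). The 3 keratinocyte markers were higher too (median 0.33), with a mean of 10.4 to 11.9 after siEGFR, against 10.2 to 11.6 after scramble siRNA, and none of the 9 leukocyte and antigen presenting cell markers passed. The part of these markers was not tested. Of 11 interferon signalling genes 2 were higher and 1 lower, with IRF9 at 0.61, IRF2 at 0.39 and IFNGR2 at −0.41. Of 7 proteasome genes 1 was lower, PSMB5 at −0.32, and none of the 5 endosomal proteases passed. In the inhibitor response of HaCaT-HRAS minus that of HaCaT-Mock, 5 of 11 interferon signalling genes were lower (median −0.26), 2 of 6 loading and trimming genes (median −0.38) and none of 5 heavy chains (median −0.20). Of the 3 keratinocyte markers 2 were lower in the same test (median −0.58), where 9.53% of all genes differed.

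Over the means of 40 groups the genes outside the list most like TAP1 were FAM114A1 (r = 0.93), COMMD7 (0.93), PARP12 (0.92), KCNK5 (0.92) and NFKBIA (0.91), and those most like CD74 were RENBP (0.67), MORC2-AS1 (0.65), PTCRA (0.65), C10orf95 (0.64) and GYG2 (0.62). B2M and PSMB9 had r = 0.90 and TAP1 and PSMB8 0.89, while CD74 and B2M had −0.24. The group means spread by an SD of 0.63 for PSMB9, where arrays within groups had a residual SD of 0.19, and by 0.19 for CD74, where the residual SD was 0.20. These groups share lines, batches and treatments, so the values are a description.

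The carcinoma lines SCC1 and SCC25, which are untreated, were set against HaCaT-Mock under PBS. SCC25 had 6 members higher, beside 42.2% of all genes changed, and SCC1 had 3 (37.4%). NLRC5 read 6.87 and 6.60 in SCC25, against 5.23, 5.29 and 5.24 in HaCaT-Mock, a difference of 1.48 (SE 0.158, adjusted p = 7.06e-12). PSMB9 read 10.16 and 10.35 in SCC25, against 8.77, 8.69 and 9.01 in HaCaT-Mock, a difference of 1.45 (SE 0.167, adjusted p = 7.83e-11). PSMB8 was 1.12 higher in SCC25, TAP1 0.61, TAPBP 0.61 and TAP2 0.47. The level of PSMB9 in SCC25 lay within that of HaCaT-Mock inhibitor arrays (9.85 to 10.40). With the study's probe set rule TAP2 in SCC25 turned to −0.46 (adjusted p = 0.00174).

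In SCC1 TAP1 read 9.16 and 9.10, against 8.26, 8.30 and 8.48 in HaCaT-Mock, a difference of 0.91 (SE 0.105, adjusted p = 7.72e-11), and PSMB8 and NLRC5 were higher by 0.68 and 0.65. PSMB9 read 9.08 and 9.16 in SCC1, with an interval of −0.02 to 0.65. The keratinocyte markers were lower in SCC1 (3 of 3, median −3.03) and higher in SCC25 (3 of 3, median 0.89). All 5 measured heavy chains were higher in SCC25 (median 1.24) and 4 of 5 in SCC1 (median 0.40). FaDu and parental HaCaT had 1 array per batch and no test. FaDu read 9.46 for PSMB9 and 12.80 for B2M in batch M, and 9.15 and 10.57 in batch P, a PBS array left out of the tests. On that PBS array the difference between the 3′ and 5′ ACTB control probe sets was 2.65. Parental HaCaT read 9.42 for PSMB9 and 7.65 for TAP2 in batch M.

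**Figure D5:**
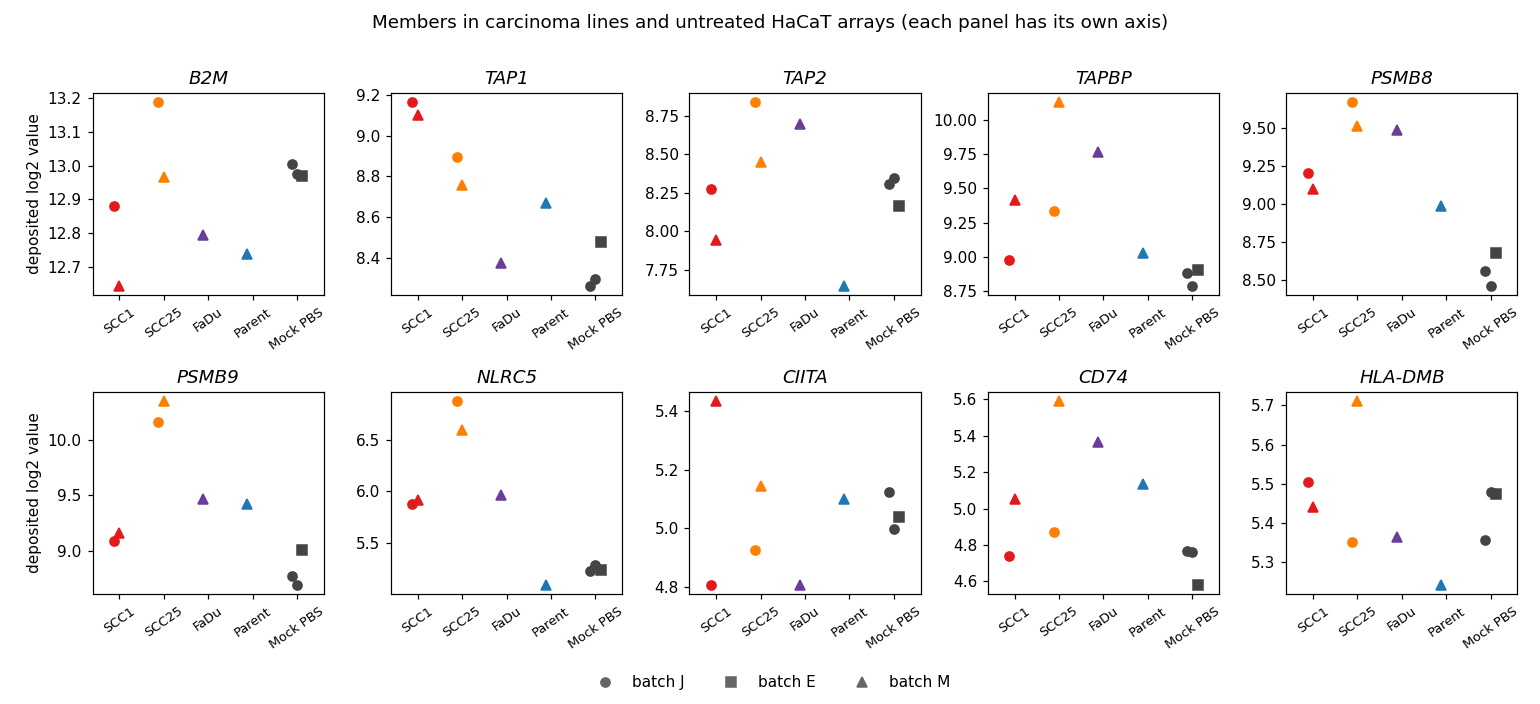
Deposited log2 value of each gene (vertical, own axis per panel) in SCC1, SCC25, FaDu (batch M), parental HaCaT and HaCaT-Mock under PBS; points are arrays and marker shapes are batches. NLRC5 and PSMB9 were highest in SCC25 (6.60 to 6.87 and 10.16 to 10.35), and TAP1 was highest in SCC1 (9.10 to 9.16).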

How the data were processed

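Total RNA of 96 samples was measured on Affymetrix U133 Plus 2.0 arrays. The authors deposited 1 table of log2 expression values (54675 probe sets, 2.65 to 14.50), used here as given. Their methods name fRMA, pSVA for technical batches and the removal of outlier arrays, and the processing notes name affy (version not given). The sources used here do not say which of these steps went into the deposited values. The labels name 2 labelling kits without tying them to arrays. The platform annotation gave 41097 probe sets 1 gene symbol, 1801 several and 11777 none, and those with several or none were not used.

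The 10 genes and the lists were chosen with earlier results of these data known. The genes named are these 10, up to 3 genes per list with the lowest adjusted p under the inhibitors, the 5 genes most like TAP1 and CD74, and EGFR. Marker genes, PSMB5, IRF2, IFNGR2 and DUSP6 were named after their values were seen. Groups came from the labels. A limma 3.58.1 fit (R 4.3.3) of group and batch over 89 HaCaT construct arrays gave all comparisons between constructs, inhibitors and siRNAs, and a fit over 95 arrays those of SCC1 and SCC25, with Benjamini-Hochberg adjustment over 19775 genes and a threshold of 0.05. The number of arrays limits the precision. The alternatives were batch J alone, no batch term, array weights, only the groups compared, the study's probe set rule, only genes at or above the median level, quantile normalization, the replicate number as a block, and leaving out arrays one at a time or 3 together. The 3 were HaCaT-HRAS gefitinib replicates 1 and 2 and HaCaT-PIK3CA afatinib replicate 1. Leaving out 4 arrays together, 1 further array, or the array labelled HaCaT-Mock scramble siRNA with PBS was chosen after seeing the data. The members' own values were part of that choice. Promoter windows are of RefSeq, GRCh38.p14.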

Additional observations from a re-analysis of the deposited data

Results flagged for a closer look

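The inhibitor response of HaCaT-HRAS differed from that of HaCaT-Mock for 3 of the 10 genes by a test of the difference itself (limma, Benjamini-Hochberg over 19775 genes). It was smaller for PSMB8 (−0.49, SE 0.106, adjusted p = 0.00103), for PSMB9 (−0.62, SE 0.173, adjusted p = 0.0128) and for CD74 (−0.55, SE 0.181, adjusted p = 0.0419), each on the log2 scale. Of all genes, 9.53% differed in the same test. Leaving out 1 array at a time gave 1 to 4 of the 10 genes. CD74 read low, with a mean of 5.07, and HaCaT-Mock had no PBS array in batch M.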

How the results depend on the processing

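Of 683 values of the 75 called gene results under settings other than leaving out 1 array, 605 kept their direction and call, 75 lost the call and 3 turned round. Of 1261 values with 1 array left out, 1194 kept both and 67 lost the call. Of 1693 and 2489 values of genes not called, 98 and 8 gained a call. All reversals came from the study's probe set rule, which reads TAP2 from 204769_s_at: TAP2 differed by 0.048 after siEGFR in HaCaT-EGFR, by 0.11 in HaCaT-HRAS and by −0.46 in SCC25. That the probe sets of TAP2 differ is given above, and the cause was not tested. The number of genes called over the 4 lines was 6 under each setting that leaves out 1 array, for the mean of the inhibitors and for each inhibitor.

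The number of the 10 genes called moved as follows. HaCaT-EGFR against HaCaT-Mock under PBS (0) gave 1 with array weights and without 3 or 4 arrays in doubt. HaCaT-HRAS against HaCaT-Mock under PBS (1) gave 0 in batch J alone, without a batch term and with only the groups compared, 4 with array weights and 3 without the 3 or 4 arrays, and under scramble siRNA (1) 0 in batch J, without a batch term and with the study's probe set rule, 2 with only the groups compared, 6 with array weights and 5 without the 3 or 4 arrays. The inhibitors in HaCaT-HRAS (4) gave 0 in batch J, 1 without a batch term and 2 with only the groups compared, and in HaCaT-PIK3CA (6) 3 in batch J and 2 with only the groups compared. Gefitinib against cetuximab (1) gave 0 in batch J and without a batch term, 2 with array weights and quantile normalization, and 3 with only the groups compared, with genes above the median level and without the 3 or 4 arrays. The response of HaCaT-HRAS minus that of HaCaT-Mock (3) gave 0 in batch J and 5 without 4 arrays. SiEGFR over the lines (3) gave 6 with array weights, only the groups compared and without 4 arrays, and 5 without 3. Scramble siRNA against PBS (2) gave 0 in batch J, without a batch term and with quantile normalization, and 4 with array weights. SiEGFR in HaCaT-Mock, HaCaT-EGFR and HaCaT-PIK3CA (1 each) gave 0 with the study's probe set rule, and 2 or 3 with array weights, only the groups compared, genes above the median level and without the 3 or 4 arrays. SiEGFR in HaCaT-HRAS (2) gave 1 in batch J, without a batch term and with the study's rule. SCC1 (3) gave 5 with the study's rule.

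With the replicate number as a block, the counts were 0 for HaCaT-HRAS against HaCaT-Mock under PBS and under scramble siRNA, 1 and 3 for the inhibitors in HaCaT-HRAS and HaCaT-PIK3CA, 0 for gefitinib against cetuximab, 1 for the response of HaCaT-HRAS minus that of HaCaT-Mock, 0 for scramble siRNA against PBS and 1 for siEGFR in HaCaT-HRAS. Within batch J, over 190 pairs of 20 groups, the deviations correlated between −0.21 and 0.22, and 9 pairs were over 0.1. Arrays of the same number thus shared no strong deviation. Whether the numbers mark shared cultures is not in the labels, and these correlations cannot decide it.

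Leaving out 1 array of the groups compared gave 6 to 7 genes for the inhibitors in HaCaT-Mock, 2 to 4 in HaCaT-HRAS and 4 to 6 in HaCaT-PIK3CA, 0 to 3 for gefitinib against cetuximab, 1 to 4 for the response difference of HaCaT-HRAS, 2 to 4 for siEGFR over the lines, 1 to 2 for siEGFR in HaCaT-HRAS, 0 to 3 for scramble siRNA against PBS and 0 for HaCaT-HRAS against HaCaT-Mock under PBS. Gefitinib against cetuximab gave 2 without HaCaT-HRAS gefitinib replicate 2 or 3. SiEGFR in HaCaT-HRAS gave 1 without siEGFR replicate 1 or 2 or scramble siRNA replicate 1 or 3. Scramble siRNA against PBS gave 0 without replicate 1 of PBS in any line or replicate 3 of scramble siRNA in HaCaT-Mock, HaCaT-HRAS or HaCaT-PIK3CA, and 1 without replicate 2 of PBS in HaCaT-EGFR, HaCaT-HRAS or HaCaT-PIK3CA, replicate 3 of PBS in HaCaT-Mock, or replicate 1 of scramble siRNA in HaCaT-EGFR, HaCaT-HRAS or HaCaT-PIK3CA or 2 in HaCaT-EGFR.

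The count of all genes called moved by over 1.5 times for these comparisons (the value as reported, then the lowest and highest over the settings): HaCaT-EGFR against HaCaT-Mock under PBS 138 (0 to 1361), HaCaT-HRAS against HaCaT-Mock under PBS 3179 (1588 to 5272), HaCaT-PIK3CA against HaCaT-Mock under PBS 32 (0 to 580), HaCaT-HRAS against HaCaT-Mock under scramble siRNA 2945 (1359 to 5099), inhibitors against PBS in HaCaT-Mock 5668 (3486 to 7434), inhibitors against PBS in HaCaT-EGFR 5221 (3167 to 7725), inhibitors against PBS in HaCaT-HRAS 1189 (65 to 2161), inhibitors against PBS in HaCaT-PIK3CA 4010 (1175 to 6288), cetuximab against PBS over the 4 lines 5686 (3658 to 7541), gefitinib against cetuximab over the 4 lines 2137 (143 to 2540), inhibitor response of HaCaT-EGFR minus that of HaCaT-Mock 14 (4 to 558), inhibitor response of HaCaT-HRAS minus that of HaCaT-Mock 1885 (456 to 3039), inhibitor response of HaCaT-PIK3CA minus that of HaCaT-Mock 28 (3 to 268), inhibitors against PBS among scramble siRNA arrays over the 4 lines 3823 (1631 to 6230), siEGFR against scramble siRNA over the 4 lines 5607 (3220 to 7301), siEGFR response of HaCaT-HRAS minus that of HaCaT-Mock 5 (0 to 84), scramble siRNA against PBS over the 4 lines 5360 (2926 to 7502), siEGFR against scramble siRNA in HaCaT-Mock 2138 (689 to 3613), siEGFR against scramble siRNA in HaCaT-EGFR 1871 (594 to 3984), siEGFR against scramble siRNA in HaCaT-HRAS 1243 (310 to 3169), siEGFR against scramble siRNA in HaCaT-PIK3CA 2300 (763 to 4772).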
